A study of Mus musculus with 9 samples.

Results

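The genes described here encode 10 proteoglycans and related leucine-rich proteins of the extracellular matrix: decorin (Dcn), biglycan (Bgn), asporin (Aspn), lumican (Lum), PRELP (Prelp), osteoadherin (Omd), osteoglycin (Ogn), podocan (Podn), versican (Vcan) and aggrecan (Acan). They were taken by name, and all 10 were found among the 26214 genes of the deposited table. RNA was sequenced from stromal cells of male C57Bl/6 mice (C57Bl/6 J in the methods) aged 8 to 12 weeks, 1 day after an injection of NaCl or of glycerol (50%) into the quadriceps. Adipose stromal cells (ASCs) came from the subcutaneous adipose tissue (ScAT) of mice that had received NaCl (3 libraries). Fibroadipogenic progenitors (FAPs) came from the quadriceps after NaCl (2 libraries) or after glycerol, which damages the muscle fibers (3 libraries, injured FAPs). The methods describe 3 libraries for each condition, but the series holds 2 of FAPs after NaCl, the group on which 2 of the 3 comparisons rest. ASCs and FAPs were sorted with magnetic beads as CD31−/CD45−/Sca-1+ cells, and a single library of CD31+CD45+ cells of glycerol-injected quadriceps was set beside them without a test. The libraries were made from cells pooled from 3 animals, and the methods do not say whether each library had a pool of its own. The p-values given below thus measure the spread between libraries, which may not hold the spread between mice.

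The 8 libraries compared held 24052508 to 27481573 reads each and the CD31+CD45+ library 13091077. Values are normalized counts, that is reads divided by a size factor of the library. Markers of the sort were checked first. Ly6a, the gene of Sca-1, stood at 46513, 49855 and 36777 in ASCs, 16542 and 10823 in FAPs and 24309, 21308 and 24855 in injured FAPs. Pdgfra, a marker of mesenchymal progenitors, stood at 10837, 15083 and 13043, 17754 and 17756 and 23649, 25268 and 23236 in the same order, against 119 in the CD31+CD45+ library. Cd34 ranged from 10736 to 55027 and Thy1 from 8532 to 17583 over the 8 libraries. Pecam1 (CD31) was at most 269 there and Ptprc (CD45) at most 55.8, against 45323 and 797 in CD31+CD45+ cells. The 8 sorted libraries thus carried the stromal markers and little of the genes used for depletion, while the library labelled CD31+CD45+ still held Ly6a (17672). The 2 FAP libraries list 15 genes at exactly 0 that stood at 50 or more in every injured FAP library, most of them genes of leukocytes or endothelium. Vwf, Cldn5 and Emcn were at 0 in both, beside Cdh5 at 1438 and 686 and Kdr at 1055 and 684, and Pecam1 stood at 195 and 0. The methods describe the same sort and the same sequencing for all groups of ASCs and FAPs and give no account of these zeros. Where they come from was not tested, so calls and folds against a 0 in FAPs carry that doubt.

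Small leucine-rich proteoglycans carry leucine-rich repeats on a short core protein, often with chondroitin, dermatan or keratan sulfate chains, and many bind collagen fibrils, whose diameter and spacing they regulate. Decorin and biglycan also bind growth factors such as TGF-β, and soluble biglycan can signal through Toll-like receptors. Versican and aggrecan are large hyaluronan-binding chondroitin sulfate proteoglycans, versican typical of provisional and inflamed matrix and aggrecan of cartilage and parts of tendon.

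Several of these genes lie beside each other in the mouse genome (GENCODE M21, GRCm38). Aspn (chr13:49544443-49567565), Omd (chr13:49582462-49592822) and Ogn (chr13:49608046-49624501) follow one another on the plus strand, 14.9 kb and 15.2 kb apart. Dcn (chr10:97479609-97518143) and Lum (chr10:97565128-97572703) are 47.0 kb apart on the plus strand. Vcan (chr13:89655312-89742509) is on the minus strand of the chromosome that holds Aspn, Omd and Ogn. The remaining genes are Prelp (chr1:133910304-133921414, minus strand), Podn (chr4:108014791-108096445, minus strand), Acan (chr7:79053483-79115099, plus strand) and Bgn (chrX:73483602-73495933, plus strand).

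Aspn, Omd and Ogn fell together in injured FAPs while Vcan rose, and the 250 bases before the start of these 4 genes are shown for that reason, chosen after their values were seen. The sequences are from RefSeq (GRCm38.p6), where 8 of the 10 genes had an entry. They were searched on both strands for TATAAA (the TATA box), GGGCGG (the GC box), GGAATG (known from TEAD factors) and TGANTCA (known from AP-1), and letters of a match are in capitals. The windows are chr13:49544193-49544442 (Aspn, plus strand), chr13:49582212-49582461 (Omd, plus strand), chr13:49607765-49608014 (Ogn, plus strand) and chr13:89742513-89742762 (Vcan, minus strand), each written 5′ to 3′ along its gene.
Aspn: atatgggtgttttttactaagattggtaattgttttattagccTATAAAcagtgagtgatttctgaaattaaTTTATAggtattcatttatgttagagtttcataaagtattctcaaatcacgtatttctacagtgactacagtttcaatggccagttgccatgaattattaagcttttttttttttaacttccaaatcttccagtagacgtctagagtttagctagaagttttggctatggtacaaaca
Omd: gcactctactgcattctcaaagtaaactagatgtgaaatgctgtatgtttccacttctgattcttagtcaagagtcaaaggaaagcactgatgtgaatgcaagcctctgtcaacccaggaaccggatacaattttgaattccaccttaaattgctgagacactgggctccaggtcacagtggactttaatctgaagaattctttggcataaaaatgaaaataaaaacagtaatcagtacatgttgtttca
Ogn: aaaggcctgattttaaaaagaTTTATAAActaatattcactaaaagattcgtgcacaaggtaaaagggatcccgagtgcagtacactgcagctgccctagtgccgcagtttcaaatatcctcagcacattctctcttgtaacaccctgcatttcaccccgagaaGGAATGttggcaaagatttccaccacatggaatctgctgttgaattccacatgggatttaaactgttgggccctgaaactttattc
Vcan: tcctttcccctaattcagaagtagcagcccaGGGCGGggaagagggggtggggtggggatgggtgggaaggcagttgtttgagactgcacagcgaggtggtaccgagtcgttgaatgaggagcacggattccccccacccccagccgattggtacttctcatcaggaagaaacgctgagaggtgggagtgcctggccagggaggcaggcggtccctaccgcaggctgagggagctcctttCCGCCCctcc
TATAAA was found 2 times before Aspn, at 207 and 178 bases from the start, and 2 times before Ogn, where the matches at 229 and 227 bases overlap. GGAATG was found before Ogn at 86 bases. The windows of Ogn and Acan end at 49608014 and 79053225, ahead of the GENCODE gene starts given above. A stretch shortly after their RefSeq starts matched no GENCODE transcript of the gene, so their windows and distances hold for the RefSeq start only. GGGCGG was found before Vcan at 219 and 10 bases, and the window of Omd held none of the 4 motifs. Of 32851 RefSeq promoter windows of this length, 12.4% hold TATAAA, 32.7% GGGCGG, 12.6% GGAATG and 6.75% TGANTCA. The share of G and C was 30.0% before Aspn, 38.4% before Omd, 42.0% before Ogn and 62.4% before Vcan, against a median of 52.4% over all windows. The share of G and C did not follow the direction of change over the members. Podn, which also fell, has windows of 78.0% and 64.0% at its 2 listed starts, with GGGCGG 2 times in the former, and Prelp, which fell too, has 55.6%. Bgn and Acan, not called in that comparison, have 64.4% and 74.4%, with GGGCGG 3 times in each and GGAATG 1 time before Acan.

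At day 1 after glycerol most of the small leucine-rich members were lower in FAPs and versican was higher. Dcn, Lum, Ogn, Aspn, Prelp, Omd and Podn fell, from 1.60-fold (Lum) to 5.17-fold (Omd), and Vcan rose 2.31-fold. Bgn and Acan did not pass the test. Of the 10 genes, 1 was called higher and 7 lower by limma on log2(value + 1), which asked for a log2 fold change past 0.58 either way and an adjusted p below 0.05 (Benjamini-Hochberg over 13601 genes), where 24.9% of all genes tested were called higher, 27.7% lower and 52.6% in all. Their median log2 fold change was −0.99995, against −0.05 over all genes tested. In bulk RNA, fewer cells that express a gene and less RNA per cell cannot be told apart.

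Between ASCs and FAPs of NaCl-injected mice the calls went in both directions with the deposited values, and most of the higher ones were lost under other scalings. Ogn, Omd and Vcan were called higher in ASCs and Bgn, Prelp and Acan lower, 3 of 10 in each direction, beside 23.4% higher, 23.8% lower and 47.2% called in all over the genes tested. The median was −0.03, against 0.00 over all genes. With libraries brought to a common 75th percentile, with quantile normalization and with equal library totals, limma called 1 and 5, 1 and 5, and 0 and 5 genes higher and lower, beside 18.0% and 30.5%, 22.4% and 22.1%, and 11.7% and 46.4% of all genes. Injured FAPs against ASCs gave 2 genes called higher (Bgn and Acan) and 5 lower (Dcn, Lum, Ogn, Omd and Podn), beside 25.0%, 25.8% and 50.8% over the genes tested, with a median of −0.80 against 0.02. Under the same scalings the counts there were 3 and 5, 4 and 4, and 3 and 3, beside 29.2% and 22.9%, 25.2% and 25.0%, and 54.2% and 12.4% of all genes, so that with equal totals 3 of 10 higher is below the background and 3 of 10 lower above it. Acan stands at the end of the order of the 10 genes in both comparisons with ASCs, so setting it to the bound given below could not move either median. Its 2 calls carry the limit given there. The 3 comparisons share libraries, so their values stand side by side and are not independent of each other. A share of 3 in 10 either way is near the background of the deposited values, whereas 5 of 10 lower is above that of the 75th percentile and of quantile normalization and near that of equal totals. The 7 of 10 lower in injured FAPs against FAPs is above the background too (7, 6 and 6 of 10 under the scalings, where 30.9%, 27.8% and 23.9% of all genes were lower). None of these differences was tested.

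**Figure D1:**
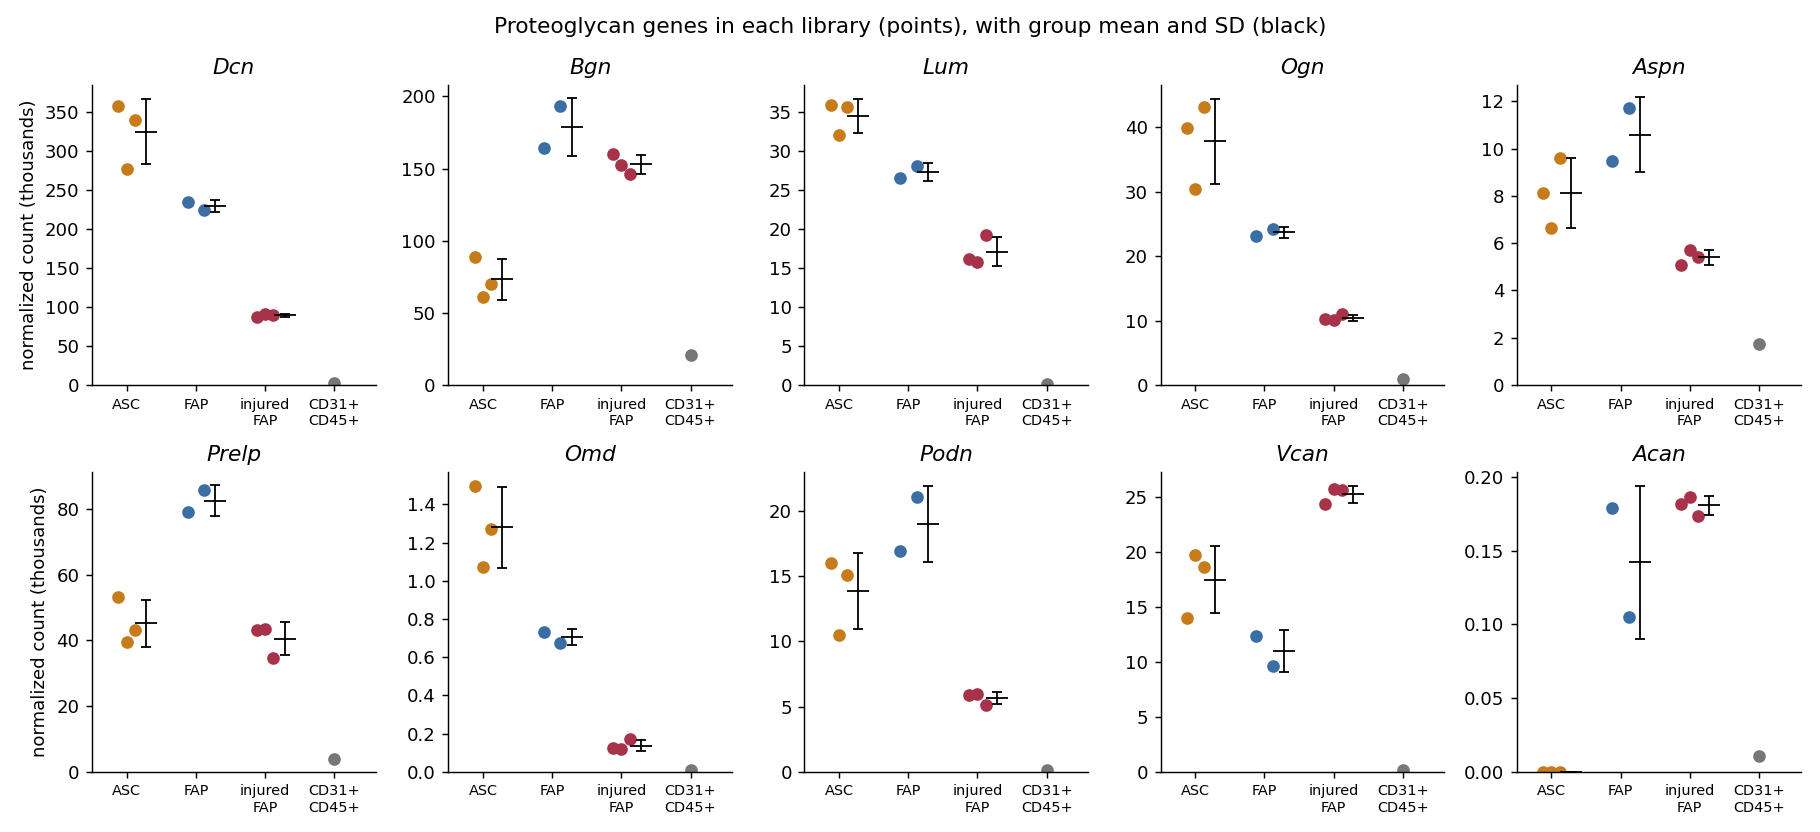
Normalized counts (divided by 1000, vertical axis from 0) of the 10 genes in each library (points) by group (horizontal axis), with the group mean and SD in black; the CD31+CD45+ group has 1 library and no SD. Injured FAP libraries lie below all FAP and ASC libraries for Dcn, Lum, Ogn, Aspn, Omd and Podn and above them for Vcan. How many of all genes separate like this was not counted, and 47.2% to 52.6% of all genes tested were called in a comparison.

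Among the class of decorin, biglycan and asporin, decorin fell with injury. Its deposited values were highest in adipose tissue, a difference from FAPs that was not called. Dcn stood at 356916, 277273 and 339279 in ASCs, 234756 and 223783 in FAPs and 87649, 90705 and 89136 in injured FAPs. The 3 groups did not overlap, with ASCs highest and injured FAPs lowest. Injured FAPs were 2.57-fold below FAPs (log2 fold change −1.36 ± 0.18 (SE), limma with Benjamini-Hochberg adjusted p = 8.9e-05) and 3.62-fold below ASCs (log2 fold change −1.86 ± 0.16 (SE), limma adjusted p = 3.77e-06). Against FAPs the ASC value was 0.49 (95% interval 0.09 to 0.89), short of the fold threshold. That difference passed it without ASC replicate 2 (0.60), and its sign turned with quantile normalization (−0.42) and equal library totals (−0.07). Dcn took between 0.895% and 0.986% of all reads of an ASC library, 1.03% and 0.984% of those of FAPs and between 0.414% and 0.438% after injury, so that on this scale ASCs and FAPs lay close together.

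Biglycan, a close relative of decorin, had another pattern. Bgn stood at 89018, 60869.7 and 70052 in ASCs, 164434 and 193091 in FAPs and 159819, 152357 and 146463 in injured FAPs. All muscle libraries were above all ASC libraries, and the injured FAP libraries lay just below the FAP libraries without overlap. ASCs were 2.46-fold below FAPs (log2 fold change −1.30 ± 0.19 (SE), limma with Benjamini-Hochberg adjusted p = 0.000216), and injured FAPs were 2.11-fold above ASCs (log2 fold change 1.08 ± 0.17 (SE), limma adjusted p = 0.000262). Both calls held in every alternative run. Injured FAPs against FAPs gave −0.22 with a 95% interval of −0.64 to 0.20 (limma adjusted p = 0.322), so that a fall as large as the fold threshold lies inside the interval. Whether the responses of Bgn and Dcn to injury differ was not tested.

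Asporin lacks the glycosaminoglycan chains of its relatives and binds collagen. Aspn stood at 8124, 6639 and 9606 in ASCs, 9480.4 and 11707 in FAPs and 5076, 5716 and 5409 in injured FAPs. Injured FAP libraries were lowest, while the highest ASC library lay above the lower FAP library. The fall in injured FAPs was 1.95-fold (log2 fold change −0.97 ± 0.15 (SE), limma with Benjamini-Hochberg adjusted p = 0.000327). The other comparisons did not pass the fold threshold, with −0.39 for ASCs against FAPs and −0.57 for injured FAPs against ASCs. Single libraries decided the latter, which passed without ASC replicate 2 (−0.71) or injured FAP replicate 2 (−0.62) and turned to 0.12 with equal library totals, while the former passed with a common 75th percentile (−0.60), quantile normalization (−1.02) and equal totals (−0.96).

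**Figure D2:**
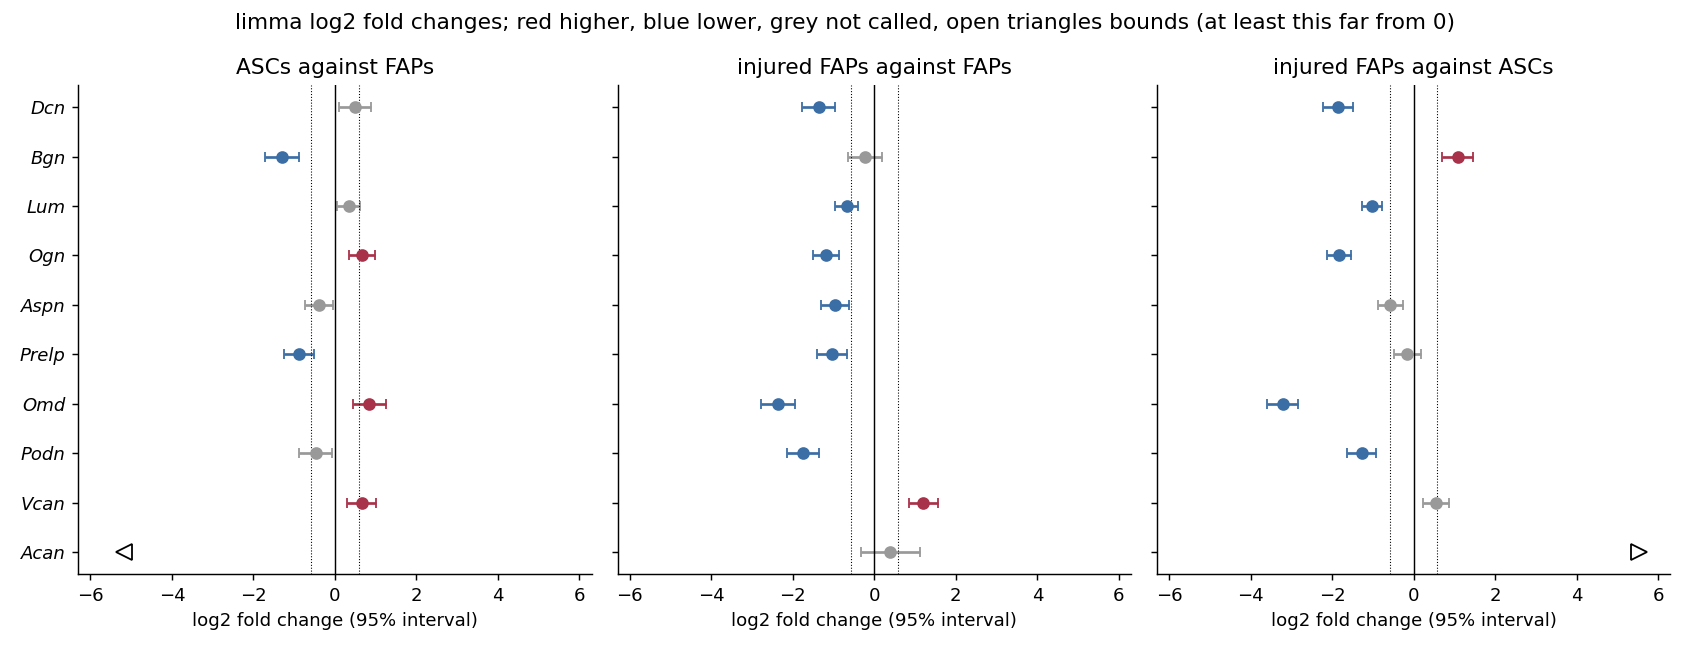
The limma log2 fold change of each gene (horizontal axis, points with 95% intervals) in the 3 comparisons; dotted lines mark 0.58 either way, red and blue points were called higher and lower, and grey points were not called. Open triangles give bounds for Acan, which had 0 reads in ASCs; in injured FAPs against FAPs 7 genes lie to the left and Vcan to the right.

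The class of lumican, PRELP and osteoadherin also holds keratan sulfate proteoglycans such as fibromodulin. Lum, which regulates collagen fibrils in cornea, skin and tendon, stood at 35918, 32073 and 35631 in ASCs, 26511 and 28129 in FAPs and 16202, 15831 and 19250.2 in injured FAPs. No group overlapped another. Injured FAPs were 1.60-fold below FAPs (log2 fold change −0.68 ± 0.12 (SE), limma with Benjamini-Hochberg adjusted p = 0.000791), which fell short of the threshold with equal library totals (−0.55). They were 2.03-fold below ASCs (log2 fold change −1.02 ± 0.11 (SE), limma adjusted p = 1.98e-05), a call lost with quantile normalization (−0.16) and equal totals (−0.32). ASCs against FAPs gave 0.34 (95% interval 0.06 to 0.61), not past the threshold, and −0.45 and −0.23 under the same alternatives.

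PRELP anchors basement membranes to connective tissue and binds heparan sulfate. Prelp stood at 53161, 39381 and 43228 in ASCs, 79244 and 85848 in FAPs and 43228, 43526 and 34717 in injured FAPs. The 2 FAP libraries were above all others, and ASCs and injured FAPs overlapped. FAPs were 1.84-fold above ASCs (log2 fold change −0.88 ± 0.17 (SE) for ASCs against FAPs, limma with Benjamini-Hochberg adjusted p = 0.00115) and 2.05-fold above injured FAPs (log2 fold change −1.03 ± 0.17 (SE) for injured FAPs against FAPs, limma adjusted p = 0.000337). The latter call was lost with quantile normalization (−0.40). For injured FAPs against ASCs the value was −0.16 with a 95% interval of −0.49 to 0.17, and it became 0.98 with quantile normalization and 0.54 with equal totals.

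Osteoadherin is known from mineralized tissue and had low values here. Omd stood at 1497, 1073 and 1269 in ASCs, 733 and 675 in FAPs and 124, 117 and 171 in injured FAPs, from 158, 151 and 224 reads in the last group. The groups were far apart and did not overlap. Among the 10 genes Omd had the largest fall in injured FAPs, 5.17-fold below FAPs (log2 fold change −2.37 ± 0.19 (SE), limma with Benjamini-Hochberg adjusted p = 3.05e-06) and 9.31-fold below ASCs (log2 fold change −3.22 ± 0.17 (SE), limma adjusted p = 1.3e-07). ASCs were 1.80-fold above FAPs (log2 fold change 0.85 ± 0.19 (SE), limma adjusted p = 0.00285), which was lost with equal library totals (0.28).

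Osteoglycin, also called mimecan, is a small keratan sulfate proteoglycan of connective tissue. Ogn stood at 39853, 30510.2 and 43186 in ASCs, 23115 and 24268 in FAPs and 10238, 10158 and 10965 in injured FAPs. As with Dcn, Lum and Omd, the order was ASCs, FAPs, injured FAPs with no overlap. Injured FAPs were 2.27-fold below FAPs (log2 fold change −1.18 ± 0.15 (SE), limma with Benjamini-Hochberg adjusted p = 5.87e-05) and 3.58-fold below ASCs (log2 fold change −1.84 ± 0.13 (SE), limma adjusted p = 9.52e-07). The excess in ASCs over FAPs (1.58-fold, log2 fold change 0.66 ± 0.15 (SE), limma adjusted p = 0.00297) was lost without ASC replicate 3 (0.56), with a common 75th percentile (0.45) and with equal totals (0.09), and turned with quantile normalization (−0.17).

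Podocan, a collagen-binding member with a longer row of repeats, stood at 15979.5, 10502 and 15106 in ASCs, 16949.7 and 21067 in FAPs and 5901, 5948 and 5087 in injured FAPs. Injured FAPs were lowest and FAPs highest, with no overlap. Podn fell 3.36-fold in injured FAPs against FAPs (log2 fold change −1.75 ± 0.18 (SE), limma with Benjamini-Hochberg adjusted p = 1.61e-05). Injured FAPs were also 2.42-fold below ASCs (log2 fold change −1.28 ± 0.16 (SE), limma adjusted p = 5.4e-05), just short of the threshold with equal totals (−0.58). ASCs against FAPs gave −0.47 (95% interval −0.87 to −0.07), which passed the threshold without ASC replicate 1 (−0.59) or FAP replicate 1 (−0.63), with a common 75th percentile (−0.68), quantile normalization (−1.14) and equal totals (−1.04).

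Among the large proteoglycans, versican went the other way. Vcan stood at 14013, 19767 and 18659.9 in ASCs, 12394 and 9672 in FAPs and 24389.9, 25754 and 25679.8 in injured FAPs. The injured FAP libraries were highest and the FAP libraries lowest, and no group overlapped another. The rise in injured FAPs over FAPs was 2.31-fold (log2 fold change 1.21 ± 0.16 (SE), limma with Benjamini-Hochberg adjusted p = 9.77e-05), and Vcan was called higher in every alternative run, edgeR, DESeq2 and all scalings included. ASCs were 1.58-fold above FAPs (log2 fold change 0.66 ± 0.16 (SE), limma adjusted p = 0.00525), a call lost without ASC replicate 2 (0.56) or FAP replicate 2 (0.48), with a common 75th percentile (0.45), equal totals (0.09) and quantile normalization (0.01). Injured FAPs against ASCs gave 0.55 (95% interval 0.23 to 0.87), just short of the threshold, and passed it with edgeR (0.62), without ASC replicate 2 (0.64) or ASC replicate 3 (0.60), and with the other 3 scalings (0.66, 1.25 and 1.32).

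In the comparison where Vcan rose, some leukocyte and monocyte markers were called higher. Of 8 leukocyte markers 5 were tested, and 3 were called higher and 0 lower in injured FAPs. The 3 called, Lyz2, Csf1r and Cd74, were at 0 in both FAP libraries. Their summed level was 456, 384 and 372 in ASCs, 265 and 497 in FAPs and 543, 2358 and 455 in injured FAPs, against 28494 in the CD31+CD45+ library, with Cd68 most abundant in FAPs and Ptprc, Lyz2, Csf1r, Cd74 and S100a9 at 0 in both FAP libraries. Of 5 monocyte markers 4 were tested and 4 were called higher, with sums of 5613, 7006 and 3388 in ASCs, 123 and 94.1 in FAPs and 552, 783 and 476 in injured FAPs, Plac8 most abundant and Ccr2 and F13a1 at 0 in both FAP libraries. Several of these calls rest on zeros of the FAP libraries, with the doubt given above. The leukocyte sums of FAPs and injured FAPs overlapped. The leukocyte sum was highest in injured FAP replicate 2, and without this library the log2 fold change of Vcan was 1.19. Vcan stood at 200.9 in the single CD31+CD45+ library, where the endothelial markers summed to 281404, so this value is not one of leukocytes alone. The part of leukocytes in the rise of Vcan was not tested.

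Aggrecan was listed at 0 reads in all 3 ASC libraries, at 179 and 105 in FAPs (188 and 112 reads) and at 182, 187 and 174 in injured FAPs (232, 241 and 228 reads). All muscle libraries were above all ASC libraries, and FAPs and injured FAPs overlapped. Against a floor of 3 reads in the ASC library where they are worth most (a value of 3.95), Acan was at least 35.9-fold higher in FAPs and at least 45.8-fold higher in injured FAPs. Limma called both, but with no read in any ASC library its folds and p-values hang on the 1 added to each value. Acan also passed the filter on the mean through the muscle libraries alone, so these calls add nothing to the bounds. Injured FAPs against FAPs gave 0.39 with a 95% interval of −0.33 to 1.12. Of all genes in the table, Acan was the only one at 0 in every ASC library and at 50 or more in every injured FAP library.

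Tendon markers separated muscle from adipose tissue in the same way. All 7 (Tnmd, Scx, Mkx, Thbs4, Comp, Cilp2 and Kera) were tested, none was at 0 in any library, and all 7 were called lower in ASCs than in FAPs. Their summed level was 1229, 1130.3 and 1224 in ASCs, 143997 and 146937 in FAPs and 156079, 157367 and 150620.0 in injured FAPs, most of it Thbs4. In injured FAPs against FAPs 5 of the 7 were called lower and 0 higher, with a median of −1.07 (5 and 1 with quantile normalization). Of 7 cartilage markers 4 were tested, with 3 called lower and 1 higher in ASCs than in FAPs, 3 lower and 0 higher in injured FAPs than in FAPs (2 and 0 with equal library totals), and Matn1 at 0 in all 8 libraries; sums were 3806, 2758 and 4045 in ASCs, 2984 and 4107 in FAPs and 1523, 1293 and 1323 in injured FAPs, with Sox9 most abundant in ASCs and Col11a2 in FAPs, so that the summed cartilage markers overlapped between ASCs and FAPs.

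Of the lists for further cell types, 4 were mostly lower in ASCs than in FAPs. Of 6 smooth muscle and pericyte markers 5 were called lower and 0 higher (median −3.63), with sums of 5109, 3252 and 3971 in ASCs, led by Abcc9, against 19851 and 16405 in FAPs. All 5 muscle fiber markers tested (6 listed) were lower (median −4.60), with sums of 157, 106 and 149 against 728 and 904, Tnnt3 most abundant in ASCs and Myh4 and Tnnc2 at 0 in ASC replicate 3. Both satellite cell markers tested (5 listed) were lower (1 with quantile normalization), with sums of 5.27, 9.06 and 3.77 against 66.6 and 135, Pax7 most abundant in FAPs and at 0 in all ASC libraries. Of 5 Schwann cell markers 3 were lower and 0 higher (2 and 0 with quantile normalization), with sums of 1133, 866 and 789.6 against 935 and 1661, Mbp most abundant in ASCs and none at 0. The tendon, cartilage and these further markers moved with Acan, Bgn and Prelp, which were also lower in ASCs, and their part in those results was not tested.

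Other lists were mostly higher in ASCs than in FAPs. Of the 4 monocyte markers tested 3 were called higher and 0 lower, a count that was the same under the other 3 scalings, and the sums given above were highest in ASCs, with Plac8 most abundant and Ccr2 and Chil3 at 0 in all ASC libraries. Of the 5 leukocyte markers tested 3 were higher and 0 lower (3 and 1 with the 75th percentile and with equal totals), but Lyz2, Csf1r and Cd74, the 3 called, were at 0 in both FAP libraries, and the sums of the list overlapped. Both adipocyte markers tested (5 listed) were higher, with sums of 121, 109 and 119 in ASCs, 15.2 and 21.6 in FAPs and 6.28, 6.97 and 1.53 in injured FAPs, Plin1 most abundant in FAPs and Retn at 0 in both FAP libraries. Of the 7 stromal markers 5 were higher and 1 lower, and with the 75th percentile, quantile normalization and equal totals 3 and 2, 1 and 2, and 2 and 2. These lists moved with Ogn, Omd and Vcan, which were called higher in ASCs, and their part in those calls was not tested. Endothelial markers were mixed, with 3 of 8 tested higher and 4 lower and sums of 6492, 5162 and 6943 in ASCs, 5712 and 3769.8 in FAPs and 1548, 1693 and 1282 in injured FAPs, Tek most abundant in ASCs and in FAPs. Of 2 mesothelial markers tested 1 was higher and 1 lower, with sums of 357, 58.9 and 128, 52.3 and 63.0 and 76.9, 63.5 and 83.1 in the same order.

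In injured FAPs against ASCs, all 7 tendon markers, 4 of 5 muscle fiber markers, both satellite cell markers, 4 of 6 smooth muscle and pericyte markers, 3 of 4 cartilage markers, 4 of 8 endothelial markers, 3 of 5 leukocyte markers, 2 of 4 monocyte markers, 1 of 2 mesothelial markers and 1 of 7 stromal markers were called higher. Those called lower were 5 of the stromal markers, both adipocyte markers, 2 of the smooth muscle and pericyte markers and 1 each of the cartilage, endothelial, leukocyte, monocyte, mesothelial and Schwann cell markers. With quantile normalization the stromal markers gave 2 and 1 in place of 1 higher and 5 lower, the monocyte markers 2 and 2 in place of 2 and 1 and the muscle fiber markers 4 and 1 in place of 4 and 0. With equal library totals the Schwann cell markers gave 3 and 1 in place of 0 and 1, the leukocyte markers 4 and 0 in place of 3 and 1, the endothelial markers 5 and 1 in place of 4 and 1, the smooth muscle and pericyte markers 4 and 1 in place of 4 and 2 and the stromal markers 2 and 3. With the common 75th percentile the Schwann cell markers gave 1 and 1 and the leukocyte markers 3 and 0. The other counts were the same under these scalings. The part of these markers in the calls of the 10 genes there was not tested either.

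Smooth muscle and pericyte markers fell with the small leucine-rich members. All 6 were called lower in injured FAPs, and their sum went from 19851 and 16405 in FAPs to 5509.6, 5895 and 5931 in injured FAPs, with Rgs5 most abundant in injured FAPs and none at 0. The CD31+CD45+ library had a sum of 80384 for these markers and 2974 for Dcn. The stromal markers, 7 genes led by Col1a1 or Col3a1, summed to 2617650.0, 2466850.0 and 2814700.0 in ASCs, 1314910.0 and 1456900.0 in FAPs and 593622, 649386 and 571728 in injured FAPs, an order shared with Dcn. Most of this sum is Col1a1 and Col3a1, which had that order, as did Cd34. Pdgfra had the reverse order, Ly6a was lowest and Pdgfrb highest in FAPs, and Thy1 overlapped between FAPs and injured FAPs. Of the 7 genes, 3 were called lower and 1 higher in injured FAPs than in FAPs (1 and 1 with quantile normalization). Tendon and cartilage markers were called lower there too, 5 of 7 and 3 of 4 with 0 higher, though the tendon sum, most of it Thbs4, did not fall. Counts for further cell types are given under Other observations. The part of these cell types in the falls was not tested.

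In the CD31+CD45+ library all 10 genes were below their mean in injured FAPs, from 0.795% of it for Vcan to 32.1% for Aspn. Bgn stood at 20737 there, 13.6% of its mean in injured FAPs. This is 1 library with no replicate, and differences from it have no replicate check.

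Levels can be compared between genes per kilobase of exon, here the exons of GENCODE M21 transcripts with a RefSeq match. In ASCs Dcn was highest with 167349 ± 21573 (SD, n = 3) per kilobase, followed by Bgn with 30307 ± 5934 (SD, n = 3). Ogn, Lum and Prelp came next at 14750.5, 14109.8 and 12519 with overlapping ranges between neighbors, as did Podn and Aspn at 4373 and 3488. Vcan (1304), Omd (569) and Acan (0) were lowest. In FAPs the order was Dcn (118241 ± 4002 (SD, n = 2)), Bgn (73899 ± 8377 (SD, n = 2)), Prelp, Lum, Ogn, Podn, Aspn, Vcan, Omd and Acan, with no overlap between neighbors. In injured FAPs Bgn was first with 63199.5 ± 2767 (SD, n = 3) and Dcn second with 45984 ± 788 (SD, n = 3), and Vcan (1885) and Podn (1781) overlapped. The levels and some ranks hang on the exons counted. With the exons of all GENCODE M21 transcripts, an alternative chosen after the results were seen, Dcn is 5838 in place of 1939 bases long and Bgn 6099 in place of 2419, and in ASCs Dcn stood at 55582 ± 7165 (SD, n = 3) per kilobase, Ogn at 14750.5 ± 2561 (SD, n = 3), Lum at 14109.8 ± 875 (SD, n = 3), Prelp at 12519 ± 1967 (SD, n = 3) and Bgn at 12020.5 ± 2354 (SD, n = 3), where Bgn ranked 5 and overlapped with Prelp. Dcn was then still first in ASCs and FAPs and Bgn in injured FAPs, Aspn stood before Podn with overlap in ASCs and FAPs, and Vcan and Podn no longer overlapped in injured FAPs.

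The ratio of Dcn to Bgn per kilobase was 5.002, 5.68 and 6.04 in ASCs, 1.78 and 1.45 in FAPs and 0.684, 0.743 and 0.759 in injured FAPs. With the exons of all transcripts it was 4.19, 4.76 and 5.06, 1.49 and 1.21 and 0.573, 0.622 and 0.636 in the same order. These ratios do not depend on the scaling of a library by a single factor, and the groups did not overlap with either length. By the exons with a RefSeq match, Dcn made up 66.7% to 67.8% of the summed level of the 10 genes in ASCs, 45.7% to 50.1% in FAPs and 32.3% to 34.3% in injured FAPs. Bgn made up 11.2% to 13.3%, 28.1% to 31.6% and 45.1% to 47.3% in the same order. By the exons of all transcripts the shares were 47.2% to 47.5%, 30.5% to 34.0% and 21.7% to 23.0% for Dcn and 9.38% to 11.3%, 22.8% to 25.2% and 36.2% to 37.9% for Bgn. The summed level of the 8 leucine-rich genes divided by that of Vcan was 263, 143 and 184 in ASCs, 260.2 and 349 in FAPs and 75.8, 71.1 and 69.0 in injured FAPs, where it was lowest, and ASCs and FAPs overlapped. With the exons of all transcripts this ratio was 133, 72.5 and 93.9, 137 and 187 and 39.95, 37.5 and 36.4 in the same order, again lowest in injured FAPs, and ASCs and FAPs did not overlap. All 10 genes together took 2.48% and 2.63% of the reads of FAPs, more than in any ASC library (at most 1.70%) or injured FAP library (at most 1.69%). This order hangs on the scale. The summed deposited values were 614477, 478087 and 576017 in ASCs, 567796 and 598346 in FAPs and 352810, 350298 and 337052 in injured FAPs. On that scale ASCs and FAPs overlapped and injured FAPs were lowest.

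**Figure D3:**
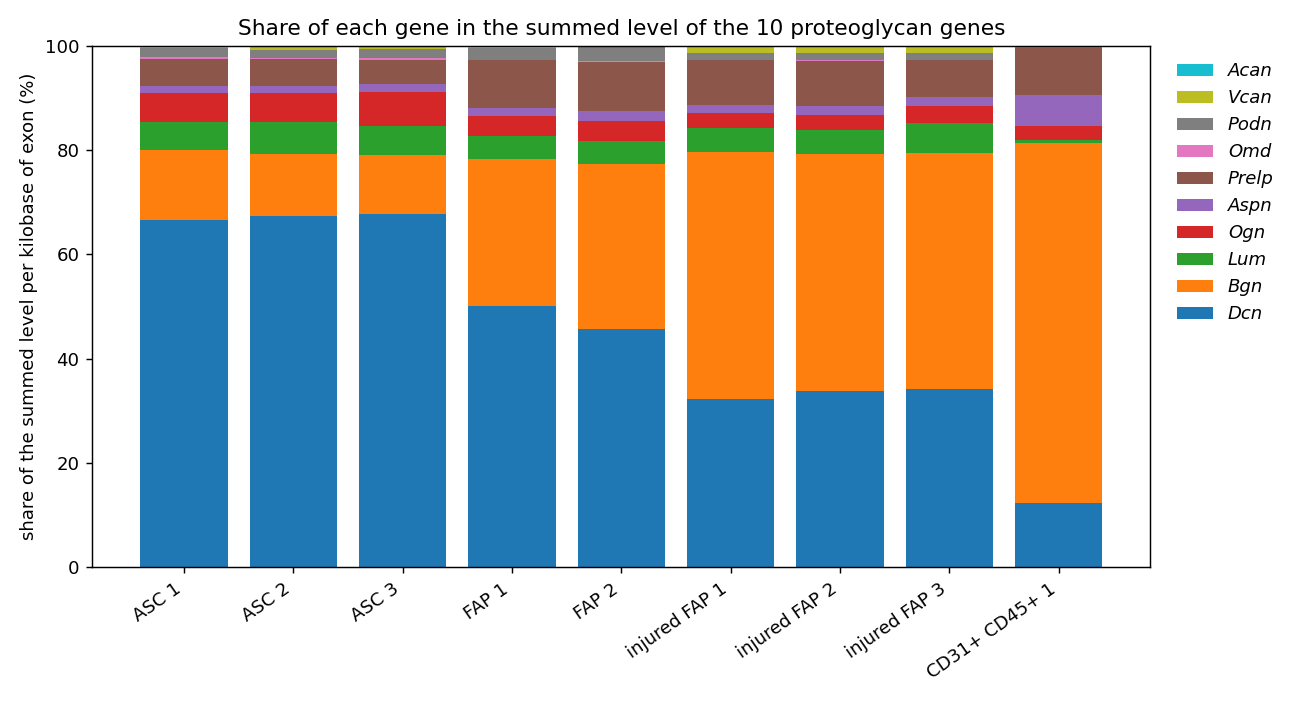
Share of each gene (vertical axis, percent) in the summed level per kilobase of exon (transcripts with a RefSeq match) of the 10 genes, by library (horizontal axis). With these lengths Dcn takes most of the bar in ASCs and less in FAPs, and Bgn takes the larger part in injured FAPs and in the CD31+CD45+ library.

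Patterns over the 8 libraries were compared by the root mean square difference of log2(value + 1) after centring each gene on its mean, among 10592 genes whose mean value reached 100. The genes nearest to Dcn were Lamb2 (0.0616), Ccpg1 (0.0771) and Snx29 (0.0894), and those nearest to Ogn were Antxr1 (0.0728), Lamb2 (0.0799) and Tmem159 (0.0810). Dcn and Ogn, on different chromosomes, differed by 0.107, which placed Ogn at rank 12 of the genes nearest to Dcn and Dcn at rank 7 for Ogn. Nearest to Lum were Slc25a36 (0.0672), Ccnl2 (0.0762) and Laptm4a (0.0768), to Aspn Araf (0.0847), Sspn (0.0866) and Cdadc1 (0.0898) and to Prelp Acsf2 (0.1001), Atf7 (0.105) and Atxn7l2 (0.107). Nearest to Bgn were Znrf1 (0.115), Adgrl2 (0.152) and Smarcd1 (0.155), to Omd Nckap5 (0.105), Abca6 (0.148) and Pdk4 (0.153) and to Podn Npr2 (0.0850), Syn1 (0.0850) and Clec11a (0.139). Vcan was nearest to Faf1 (0.0982), Xrcc5 (0.0986) and Tbcd (0.102). Acan was listed at 0 reads in all ASC libraries, so its pattern rests on the 1 added to each value. Its mean reached 100 through the muscle libraries alone. The distances and ranks for Acan thus hang on these choices and are not exact. On this scale Thbs4, a tendon marker, was nearest to Acan at 0.182, followed at a distance by Chil1 (0.586) and Col22a1 (0.640).

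Within 150 kb of a member lie 7 other genes of the lists, of which 5 were tested and 4 called lower and 0 higher in injured FAPs against FAPs, beside 27.7% and 24.9% of all genes. Ecm2, which ends 11.7 kb before Aspn and encodes another leucine-rich matrix protein, stood at 9116 and 9407 in FAPs and 1926, 1692 and 2107 in injured FAPs. Ecm2, Aspn, Omd and Ogn were all called lower, with log2 fold changes of −2.28, −0.97, −2.37 and −1.18. Dcn and Lum are followed by Kera, 34.2 kb after Lum, and Epyc (epiphycan), 30.4 kb after Kera. Dcn, Lum and Kera were called lower (log2 fold changes −1.36, −0.68 and −0.90). Epyc, at 21.9 and 26.3 in FAPs and 16.5, 17.8 and 15.3 in injured FAPs, was not called (−0.52, 95% interval −1.35 to 0.32). Optc (opticin), 2.30 kb from Prelp on the same strand, was called lower at 71.3 and 151 in FAPs and 36.1, 23.2 and 29.0 in injured FAPs (−1.80), as was Fmod, 115.8 kb from Prelp on the opposite strand (−1.76, beside −1.03 for Prelp). The link protein genes Hapln1, 43.7 kb from Vcan, and Hapln3, 2 bases from Acan, were too low to be tested. Epyc, Optc, Hapln1 and Hapln3, as well as Kera in this comparison, are named for their place and after their values were seen, as was the distance of 150 kb chosen. Whether neighbors resemble each other more than other genes was not tested.

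Of 10 further leucine-rich proteoglycan genes 8 were tested, with 1 called higher and 5 lower in injured FAPs than in FAPs and a median of −1.78, so that 6 of 8 were called, against 52.6% of all genes (0 and 5 with quantile normalization and with a common 75th percentile). Fibromodulin (Fmod) stood at 2221, 1646 and 1332 in ASCs, 119690.0 and 144393 in FAPs and 41123, 42501 and 33331 in injured FAPs, so that it was 77.5-fold lower in ASCs than in FAPs and 3.39-fold lower in injured FAPs. Chondroadherin (Chad) stood at 0, 28.3 and 60.3, 16042 and 24619.5 and 3305, 3284 and 2975 in the same order. Kera, the keratocan gene and also one of the tendon markers, was 162-fold lower in ASCs than in FAPs. In that comparison 1 of the 8 was called higher and 5 lower, against 23.4% and 23.8% of all genes. With quantile normalization the count was 1 and 4, against 22.4% and 22.1%. With equal totals and with the 75th percentile it was 1 and 6, against 11.7% and 46.4%, and 18.0% and 30.5%. In injured FAPs against ASCs 3 were higher and 4 lower, against 25.0% and 25.8% of all genes. With equal totals the count was 4 and 2, against 54.2% and 12.4% of all genes. With the deposited values Chad, Kera and Fmod had the 3 largest rises. Fmod, Chad and Kera thus had Bgn's order of adipose below muscle, but with far larger differences. A single gene of the 6 other lecticans and link proteins was tested; it was called higher in ASCs than in FAPs and lower in injured FAPs than in either.

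Genes that build the sugar chains were called at shares near or below those of all genes. Of 31 tested, 14 were called in injured FAPs against FAPs (45.2%, against 52.6% of all genes), 14 in ASCs against FAPs (45.2%, against 47.2%) and 15 in injured FAPs against ASCs (48.4%, against 50.8%). Between injured FAPs and FAPs, 2 of 15 chondroitin and dermatan sulfate genes were higher and 5 lower (5 and 5 with equal totals), 3 of 11 linker and precursor genes higher and 1 lower (3 and 0), and 1 of 5 keratan sulfate genes higher and 2 lower (the same). Csgalnact1, which starts chondroitin chains, stood at 491 and 409 in FAPs and 3622, 4044 and 4122 in injured FAPs (8.74-fold, log2 fold change 3.13 ± 0.23 (SE)). Chst15, a chondroitin sulfotransferase, was 4.63-fold lower and Chst2, which sulfates keratan chains, 2.09-fold higher.

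The balance of these lists in the comparisons with ASCs changed with the scaling, as did that of all genes. Of all genes, 23.4% were higher and 23.8% lower in ASCs against FAPs. With the 75th percentile, quantile normalization and equal totals these shares were 18.0% and 30.5%, 22.4% and 22.1%, and 11.7% and 46.4%. In injured FAPs against ASCs they were 25.0% and 25.8%, and under the same scalings 29.2% and 22.9%, 25.2% and 25.0%, and 54.2% and 12.4%. Whether the lists differ from all genes was not tested. In ASCs against FAPs 1 chondroitin and dermatan sulfate gene was higher and 4 lower, and with the 75th percentile, quantile normalization and equal totals 1 and 6, 2 and 4, and 1 and 6. Of the linker genes 3 were higher and 2 lower, and in the same order of scalings 2 and 4, 2 and 2, and 1 and 5. Ugdh, which makes UDP-glucuronic acid, was 20.7-fold higher in ASCs. Against ASCs, in injured FAPs, the chondroitin and dermatan sulfate genes gave 3 higher and 5 lower, and under the scalings 6 and 2, 3 and 2, and 9 and 2. The linker genes gave 2 and 2, and under the scalings 2 and 2, 2 and 3, and 8 and 1. The keratan sulfate genes gave 1 higher and 3 lower in ASCs against FAPs and 2 higher and 1 lower in injured FAPs against ASCs under every scaling.

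Of 12 genes for proteases of these proteoglycans, the inhibitor Timp3 counted among them, 4 were called higher and 4 lower in injured FAPs than in FAPs, 66.7% in all against 52.6% of all genes. Mmp3 was 4.87-fold and the aggrecanase Adamts4 2.34-fold higher, while Adamts15 was 6.22-fold and Timp3 2.31-fold lower. In ASCs against FAPs 7 were higher and 2 lower, against 23.4% and 23.8% of all genes. The count was 4 and 2 with quantile normalization and with equal library totals, against 22.4% and 22.1%, and 11.7% and 46.4% of all genes. Adamts1, a versican-cleaving protease, stood at 71410.0, 56216 and 62749.9 in ASCs and 12712 and 12049 in FAPs (5.10-fold). Injured FAPs against ASCs gave 2 higher and 7 lower, against 25.0% and 25.8% of all genes. With quantile normalization the count was 1 and 5, against 25.2% and 25.0%, and with equal totals 3 and 5, against 54.2% and 12.4%.

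**Figure D4:**
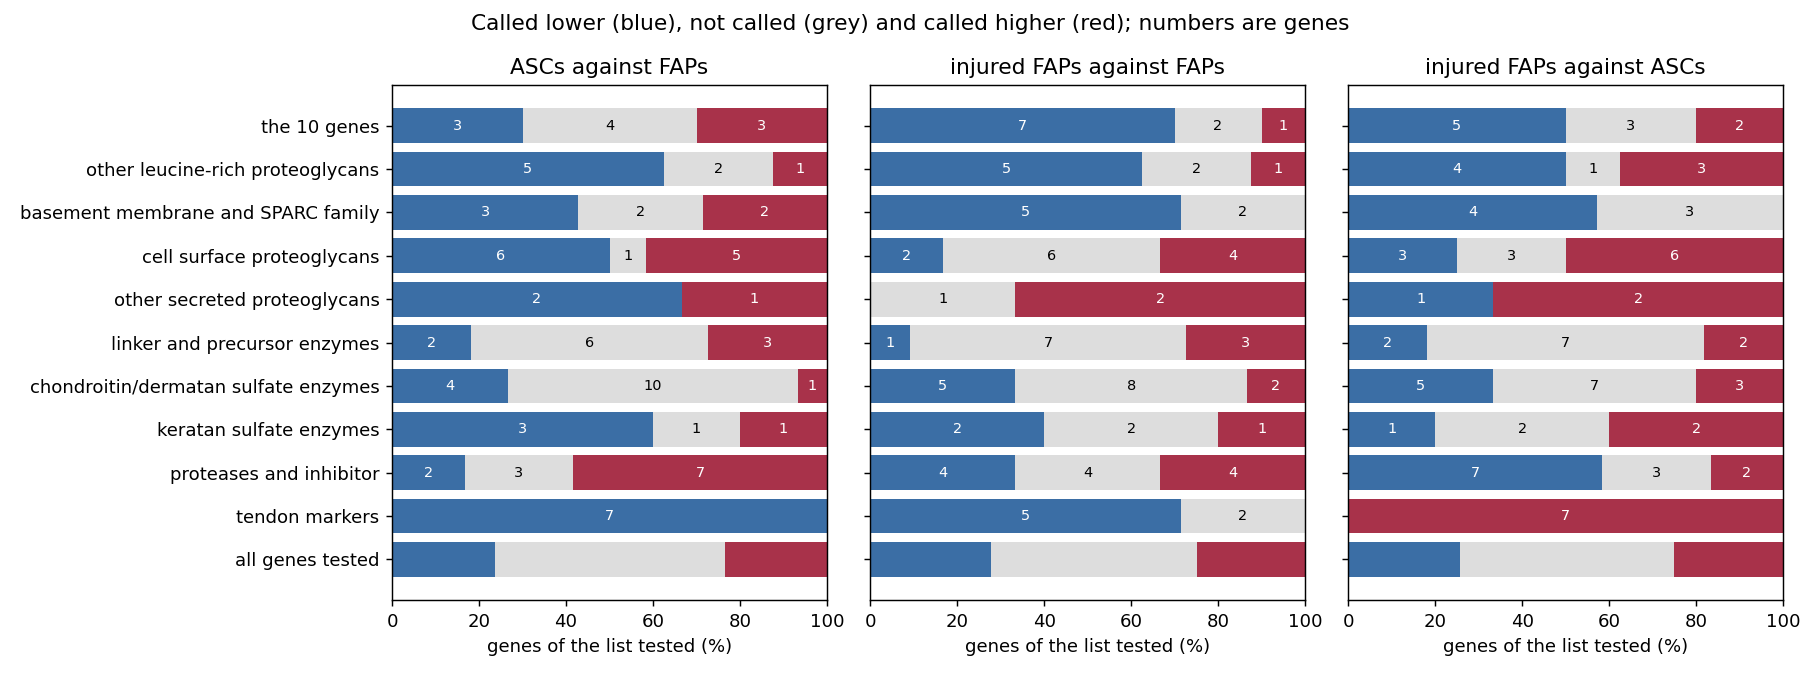
Share of the tested genes of each list (horizontal axis, percent) called lower (blue), not called (grey) and called higher (red) in the 3 comparisons, with the number of genes on the bars. The 10 proteoglycan genes show 7 lower and 1 higher in injured FAPs against FAPs, and the tendon markers are lower in ASCs than in both muscle groups.

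The scaling of the libraries moved all 3 comparisons, and with equal library totals it moved those with ASCs most. The deposited values sum to about 36203100 in ASC replicate 1 and to 20614700 in injured FAP replicate 3. Bringing the libraries to equal totals, an alternative chosen after seeing this, moved the median of all genes by −0.56, 0.13 and 0.69 for ASCs against FAPs, for injured against uninjured FAPs and for injured FAPs against ASCs, and a common 75th percentile moved it by −0.21, −0.09 and 0.11. Of all genes called in ASCs against FAPs, 49.6% were higher with the deposited values, 37.2% with the common 75th percentile and 20.1% with equal totals, and in injured FAPs against ASCs the share went from 49.3% to 56.1% and 81.3%. For injured FAPs against FAPs it was 47.4%, 41.8% and 54.9%. The median of the 10 genes in ASCs against FAPs was −0.24 with the 75th percentile, −0.73 with quantile normalization and −0.59 with equal totals, against −0.20, −0.01 and −0.56 over all genes. In injured FAPs against ASCs it was −0.68, −0.14 and −0.10, against 0.13, 0.03 and 0.71. For injured FAPs against FAPs the medians were −1.10, −0.87 and −0.87, against −0.15, −0.06 and 0.08, and Dcn, Ogn, Aspn, Omd and Podn were called lower and Vcan higher under all 3 scalings.

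**Figure D5:**
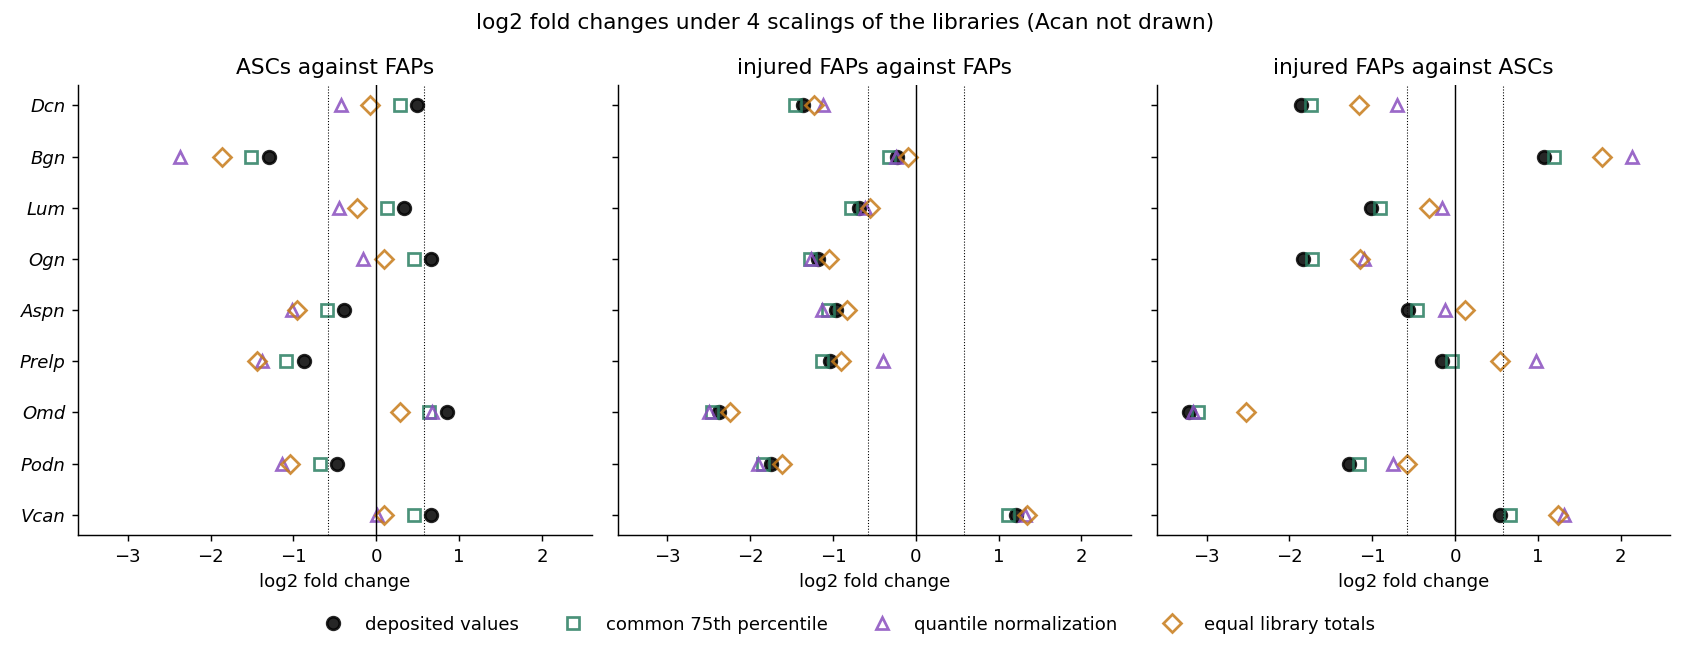
The log2 fold change (horizontal axis) of 9 of the genes in the 3 comparisons under 4 scalings of the libraries, shown by symbol; dotted lines mark 0.58 either way and Acan is left out. The symbols lie close together in injured FAPs against FAPs, apart from Prelp with quantile normalization, and spread further in the comparisons with ASCs.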

How the data were processed

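RNA of sorted cells was sequenced with paired ends in 9 libraries. Upstream, the authors used fastq_illumina_filter 0.1 (filtering), FastQC 0.11.9 (quality), HISAT2 2.2.1 (alignment, mm10), Subread 2.0.1 (featureCounts) and DESeq2 1.34.0. The deposited signal values are counts per gene divided by a size factor of the library, since 100% of the values in each library came out as whole reads within a tolerance of 0.01. The strand setting of the counting is not given in the sources used here.

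The tests used limma 3.58.1 (R 4.3.3) on log2(value + 1), in a single fit of the group means over 8 libraries with a variance trend. Benjamini-Hochberg adjustment covered the 13601 genes whose mean value was 10 or more. All 10 proteoglycan genes passed this filter, Acan through the muscle libraries alone. EdgeR 4.0.16 called 6450, 7303 and 7000 genes on the recovered reads and DESeq2 1.42.0 called 6412, 7227 and 6865 for ASCs against FAPs, for injured against uninjured FAPs and for injured FAPs against ASCs. The genes and lists were chosen with earlier results of these data known. Besides the 10 genes and the markers, the text names at most the 3 largest rises and falls of each related list, among called genes whose mean value reached 100 and whose groups did not overlap, and the 3 genes nearest to each of the 10. Alternatives covered pseudocount, filter, scaling, p threshold, groups in the fit, the replicate number, each library left out and the tool. Floors of 3 reads cover counting error only. Coordinates and exon lengths are from GENCODE M21. For the counting, the methods name transcripts from the UCSC genome browser, another source, so the exons counted may differ.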

Additional observations from a re-analysis of the deposited data

How the results depend on the processing

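Over the alternatives, 531 of the values computed for the 10 genes kept their direction and their side of the threshold, 14 lost the threshold, 17 passed it and 8 changed sign. The number of the 10 genes called in both directions together stayed within 1.5 times the reported one throughout, but not the number in each direction. In ASCs against FAPs the 3 higher and 3 lower became 1 and 5 with quantile normalization and with a common 75th percentile and 0 and 5 with equal library totals, and in injured FAPs against ASCs the 2 and 5 became 4 and 4 with quantile normalization and 3 and 3 with equal totals. Of all genes tested, 22.4% and 22.1%, 18.0% and 30.5%, and 11.7% and 46.4% were higher and lower in the former comparison with quantile normalization, the 75th percentile and equal totals, and 25.2% and 25.0%, and 54.2% and 12.4% in the latter with quantile normalization and equal totals. Sign changes came with quantile normalization and with equal library totals, which was chosen after seeing the data. With quantile normalization they were Dcn (−0.42), Lum (−0.45) and Ogn (−0.17) in ASCs against FAPs and Prelp (0.98) in injured FAPs against ASCs. With equal totals they were Dcn (−0.074) and Lum (−0.23) in ASCs against FAPs and Aspn (0.12) and Prelp (0.54) in injured FAPs against ASCs; among related genes, Agrn (0.039) and Chpf (0.013) in the latter comparison. The cause was not tested. With the replicate number as a replicate block, 6287, 7046 and 6861 genes were called, with 6, 8 and 7 of the 10 genes, as without it. The order is ASCs against FAPs, injured against uninjured FAPs and injured FAPs against ASCs. Deviations of same-numbered libraries from their group means correlated at −0.05 to 0.04. The deviations of the 2 FAP libraries mirror each other by construction. With so few libraries this cannot show whether same-numbered libraries share a pool or a day. A library left out of FAPs leaves a single one, assumed to vary like the others. Kera, Epyc and Optc, given for their place and run under the same alternatives after the data were seen, had the same calls throughout in injured FAPs against FAPs (Kera and Optc lower, Epyc not called), though the log2 fold change of Epyc passed −0.58 with a common 75th percentile (−0.61), with the replicate block (−0.62) and without FAP replicate 1 (−0.64). With the exons of all transcripts, an alternative also added after the data were seen, 10 of 30 levels per kilobase moved by more than 1 SD. Acan and Omd rest on few reads in some groups.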

Other observations

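Other proteoglycans gave values outside the comparisons above. Of the basement membrane proteoglycans and their SPARC-related neighbors, 5 of 7 tested genes were called lower and 0 higher in injured FAPs against FAPs (4 lower with quantile normalization and 3 with equal library totals; 27.7% of all genes were lower and 24.9% higher), and the largest fall was that of Spock2 (testican 2), at 8218 and 7029 in FAPs and 782, 606 and 689 in injured FAPs (11.0-fold, limma with Benjamini-Hochberg adjusted p = 2.89e-07). In ASCs against FAPs 2 were higher and 3 lower (1 and 4 with quantile normalization and with equal totals). Of all genes, 23.4% and 23.8% were higher and lower there, 22.4% and 22.1% with quantile normalization and 11.7% and 46.4% with equal totals. In injured FAPs against ASCs 0 were higher and 4 lower. The count was 2 and 3 with quantile normalization, 0 and 3 with a common 75th percentile and 2 and 2 with equal totals. Of all genes, 25.0% and 25.8% were higher and lower there with the deposited values. Under these scalings the shares were 25.2% and 25.0%, 29.2% and 22.9%, and 54.2% and 12.4%. Of 12 cell surface proteoglycans tested, 4 were higher and 2 lower in injured FAPs than in FAPs, so that 6 of 12 were called, about the 52.6% of all genes (4 and 3 with quantile normalization). Cd44, the hyaluronan receptor that can carry chondroitin sulfate, stood at 19683, 9938 and 10742 in ASCs, 3500.2 and 3418 in FAPs and 18562, 17015 and 20073 in injured FAPs, a 5.35-fold rise (limma adjusted p = 1.31e-05), and the FAP libraries were lowest. Cspg4, a pericyte proteoglycan, was 19.1-fold lower in ASCs than in FAPs. In that comparison 5 cell surface genes were higher and 6 lower (11 of 12 called, against 47.2% of all genes), but 1 and 7 with quantile normalization, 4 and 6 with a common 75th percentile and 2 and 7 with equal totals, so that the count of higher calls hangs on the scaling. In injured FAPs against ASCs 6 were higher and 3 lower (9 of 12, against 50.8% of all genes), and 8 and 3 with equal totals and 7 and 3 with quantile normalization and the 75th percentile. Of 3 other secreted proteoglycans tested, 2 were higher and 0 lower in injured FAPs than in FAPs. With quantile normalization and equal totals the count was 3 and 0. In ASCs against FAPs 1 was higher and 2 lower, and in injured FAPs against ASCs 2 higher and 1 lower. Of all genes, 24.9% and 27.7%, 23.4% and 23.8%, and 25.0% and 25.8% were higher and lower in these comparisons, in the same order. Prg4 (lubricin) stood at 18198, 22589 and 6419 in ASCs, 92344 and 46732 in FAPs and 231493, 367236 and 207288 in injured FAPs, and its rise in injured FAPs (log2 fold change 1.99 ± 0.49 (SE)) was not past the threshold of the adjusted p without FAP replicate 2 (log2 fold change 1.49). Srgn (serglycin), a proteoglycan of blood cells, was at 0 reads in both FAP libraries and at 111, 265 and 83.1 in injured FAPs, at least 53.6-fold higher against the floor of 3 reads in the FAP library where they are worth most, and at least 34.0-fold without injured FAP replicate 2, which also had the highest leukocyte sum. The doubt about the zeros of the FAP libraries holds for both bounds, which cover counting error only.

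Markers of further cell types were also counted in injured FAPs against FAPs. Of 5 muscle fiber markers tested 0 were called higher and 3 lower (0 and 2 with quantile normalization, 0 and 4 with a common 75th percentile), of 2 satellite cell markers 0 and 1, of 5 Schwann cell markers 0 and 2 (0 and 1 with quantile normalization), of 8 endothelial markers 2 and 4 (3 and 5 with quantile normalization, 3 and 4 with equal totals), of 2 adipocyte markers 0 and 1 (0 and 2 with quantile normalization) and of 2 mesothelial markers 0 and 0 (limma), whose log2 fold changes had a median of 0.27. Of the whole table, 15 genes were at 0 in both FAP libraries and at 50 or more in every injured FAP library. Srgn was among them.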
